A study of Mus musculus with 12 samples.

Results

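MHC class I and class II genes, which encode the machinery that displays peptides to T cells, were followed through isolation, culture and compression of mouse muscle stem cells (MuSCs). Members were the genes whose name in the count files exactly matched H2-K1, H2-D1, B2m, Tap1 or Nlrc5 for class I and H2-Aa, H2-Ab1, H2-Eb1, Cd74 or Ciita for class II. All 10 names were found once among 55335 genes, and all 10 passed the filter on low counts, as did 22635 genes in all. RNA-seq was made from 12 libraries of cells sorted by FACS from the hindlimb of Pax7-ZsGreen mice, a strain in which the Pax7 promoter drives a green fluorescent protein, and the mice were 3 to 6 months old. F cells were freshly isolated. Uncompressed cells, 2d-U or 5d-U, spent 2 or 5 days in culture on plastic coated with Matrigel and fibronectin. 2+3d-C cells were cultured for 2 days without and then 3 days with compression under a pillared silicone device. Each group had 3 libraries, and no label says whether they came from separate animals or cultures. The paper states that experiments were repeated, gives n = 3 for each RNA-seq group, and says that sorted batches were spread at random over the conditions. It does not say which library came from which repeat or batch. The p-values therefore measure only the spread between these libraries, which may be technical.

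Class I molecules are carried by nearly all nucleated cells and present peptides made inside the cell. H2-K1 and H2-D1 encode class I heavy chains, B2m the light chain that pairs with them, Tap1 one chain of the peptide transporter into the endoplasmic reticulum, and Nlrc5 a transactivator of class I genes. Class II molecules are typical of professional antigen-presenting cells such as dendritic cells, macrophages and B cells, and present peptides taken up from outside. H2-Aa encodes the alpha and H2-Ab1 the beta chain of the I-A molecule, H2-Eb1 the beta chain of I-E, Cd74 the invariant chain that guards the peptide groove, and Ciita the transactivator of class II genes. Interferons are known to raise both sets in many cell types.

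The 200 bases before the RefSeq start of genes from both classes are printed because promoters of both classes are known to share control elements. They come from RefSeq on GRCm38.p6, and the windows of 6 of the 10 members were searched (H2-K1, H2-D1, B2m, Tap1, H2-Aa and H2-Eb1). Cd74 was left out of the search by choice, and H2-Ab1, Nlrc5 and Ciita had no window. Capitals mark matches, on either strand, to a Y box (ATTGG), a CRE core (TGACG), a kappa B site (GGGGATTCC), the core of an interferon-stimulated response element (AANNGAAA) or a GAS element (TTCNNNGAA). The motifs were chosen after the sequences and the values were seen, and adjoining matches can overlap.
H2-K1 (chr17:34000348-34000547, minus strand): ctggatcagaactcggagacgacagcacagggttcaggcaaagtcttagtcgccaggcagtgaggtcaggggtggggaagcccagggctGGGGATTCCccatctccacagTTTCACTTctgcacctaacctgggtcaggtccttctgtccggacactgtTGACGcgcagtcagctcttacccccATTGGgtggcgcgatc
H2-D1 (chr17:35262894-35263093, plus strand): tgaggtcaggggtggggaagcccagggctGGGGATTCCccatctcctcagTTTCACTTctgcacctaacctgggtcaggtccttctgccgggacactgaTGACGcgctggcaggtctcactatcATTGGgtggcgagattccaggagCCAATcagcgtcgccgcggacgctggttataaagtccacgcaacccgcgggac
B2m (chr2:122147487-122147686, plus strand): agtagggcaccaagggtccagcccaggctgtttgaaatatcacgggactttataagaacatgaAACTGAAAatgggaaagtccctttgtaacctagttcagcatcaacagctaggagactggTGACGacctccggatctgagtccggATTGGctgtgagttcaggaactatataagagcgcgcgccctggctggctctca
H2-Aa (chr17:34287824-34288023, minus strand): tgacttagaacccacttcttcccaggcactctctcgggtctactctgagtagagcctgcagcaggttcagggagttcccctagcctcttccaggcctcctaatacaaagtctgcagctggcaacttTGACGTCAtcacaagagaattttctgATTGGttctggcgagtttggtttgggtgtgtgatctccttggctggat
H2-Eb1 (chr17:34305667-34305866, plus strand): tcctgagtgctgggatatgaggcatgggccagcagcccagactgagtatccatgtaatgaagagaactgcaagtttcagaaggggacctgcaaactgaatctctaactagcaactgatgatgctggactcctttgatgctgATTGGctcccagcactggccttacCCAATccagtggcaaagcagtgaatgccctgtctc
A Y box was found in 5 of the 6 windows and in 29.3% of all 32851 RefSeq windows of this length, and a CRE core in 5 of 6 and in 15.7%. The interferon-stimulated core was found in the windows of H2-K1, H2-D1 and B2m, in 17% of all windows, and in neither of the class II windows searched (H2-Aa and H2-Eb1). The kappa B letters occurred in the windows of H2-K1 and H2-D1 and in 0.155% of all windows. The GAS letters occurred in 0 of the 6 windows and in 5.49% of all windows. These matches describe letters only and were not tested for binding.

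The members lie at several places in mm10. H2-K1 (chr17:33996017-34000347), Tap1 (chr17:34187553-34197225), H2-Ab1 (chr17:34257689-34269419), H2-Aa (chr17:34282744-34287823), H2-Eb1 (chr17:34305867-34316674) and H2-D1 (chr17:35262730-35267499) share the major histocompatibility region of chromosome 17. B2m (chr2:122147686-122153083), Nlrc5 (chr8:94434356-94527272), Ciita (chr16:10480059-10528418) and Cd74 (chr18:60803848-60812652) lie outside it. Of the exon bases, 3.87% of Tap1 were shared with Psmb9, 3.45% of Ciita with Dexi, 0.918% of Nlrc5 with 9330175E14Rik and 0.715% of Cd74 with Mir5107, and none of the other 6. Reads that matched several places or several genes were not counted, so reads on stretches that H2-K1, H2-D1 and other class I genes have in common are missing, and the split between near-identical copies is uncertain. The H2 haplotype of the mice is not given in the sources used here, and how well reads of another haplotype would align to mm10 at the class I and class II genes was not tested, which bears on the levels and on ratios between genes below.

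Counted reads ranged from 12540745 to 62424851 per library. In 4 libraries reads also fell on gene families that are silent in muscle (receptors for smell, pheromones and taste, alpha-defensins, and proteins associated with keratin), at 5.12 and 7.24 reads per kb of exon in F replicates 4 and 5, 3.84 in 5d-U replicate 1 and 0.641 in 5d-U replicate 6, against 0.00967 to 0.229 in the other 8. The number of reads that this density predicts for a member is given below where it matters. Markers of muscle stem cells summed to 2294 to 5107 CPM (counts scaled to library size) in F libraries, 2453 to 2920 in 2d-U cultures, 2365 to 3701 in 5d-U cultures and 9573 to 14610 in 2+3d-C, and Pax7 had reads in every library. That list holds Myod1, whose protein the paper uses to mark progenitors and committed cells. Myod1 had 70065 to 275321 reads in 2+3d-C, up to the largest count of the list, and was 3.38-fold higher there than in 5d-U. The 22 immune cell markers summed to 620.8 to 2102 CPM in F libraries, 0.709 to 4.54 in 2d-U cultures, 3.32 to 152.9 in 5d-U cultures and 9.69 to 129 in 2+3d-C. In these bulk libraries, a change in the number of cells of a type and a change in RNA per cell cannot be told apart.

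Levels are given below as RPKM, read density per kilobase of exon after scaling libraries by TMM, always in the order of replicates 1, 4 and 5 of F, then 1, 2 and 3 of 2d-U, then 1, 2 and 6 of 5d-U, then 4, 5 and 10 of 2+3d-C. Differences are log2 fold changes with their standard error (SE) from edgeR's quasi-likelihood test, with p-values adjusted by Benjamini-Hochberg over the 22635 tested genes, and calls required an adjusted p under 0.05. The 6 comparisons share libraries and are not independent of each other.

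The class I heavy and light chains were abundant in F cells, low after 2 and 5 days of uncompressed culture, and abundant again in 2+3d-C cells. H2-K1 was at 450.3, 417 and 332 RPKM in F libraries, 36.3, 34.1 and 31.8 in 2d-U cultures, 35.0, 13.6 and 31.9 in 5d-U cultures, and 556, 1314 and 493 in 2+3d-C. H2-D1 was at 792, 976 and 706 RPKM in F libraries, 101.5, 107 and 99.3 in 2d-U cultures, 64.4, 45.2 and 104 in 5d-U cultures, and 926, 2560 and 941 in 2+3d-C. In both heavy chains every F and every 2+3d-C library lay above every uncompressed culture, and 2+3d-C replicate 5 was the highest of the 12. B2m was at 3268, 771 and 1090 RPKM in F libraries, 170.2, 160.4 and 179 in 2d-U cultures, 343, 258 and 755 in 5d-U cultures, and 857, 2694 and 795 in 2+3d-C. For B2m the highest 5d-U library, replicate 6, came within 40.2 RPKM of the lowest 2+3d-C library, and F replicate 1 was the highest of all.

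The transporter and the class I transactivator followed the same course at lower levels. Tap1 was at 14.0, 35.0 and 29.1 RPKM in F libraries, 1.48, 0.415 and 0.336 in 2d-U cultures, 2.23, 1.99 and 0.902 in 5d-U cultures, and 22.8, 19.9 and 8.58 in 2+3d-C. Nlrc5 was at 0.593, 0.742 and 1.44 RPKM in F libraries, 0.0534, 0 and 0 in 2d-U cultures, 0.102, 0.00411 and 0.0749 in 5d-U cultures, and 4.82, 2.23 and 2.92 in 2+3d-C. Every 2+3d-C library was above every F library for Nlrc5, and every F library was above every uncompressed culture. In reads, Nlrc5 had 20, 1 and 13 in 5d-U, where the density on silent genes predicts 32.6, 0.512 and 5.44, and 2184, 157 and 543 in 2+3d-C, where it predicts 1.6, 0.249 and 0.29. Its reads were thus 0.613 to 2.39 times the prediction in 5d-U cultures and 631 to 1870 times in 2+3d-C.

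**Figure D1:**
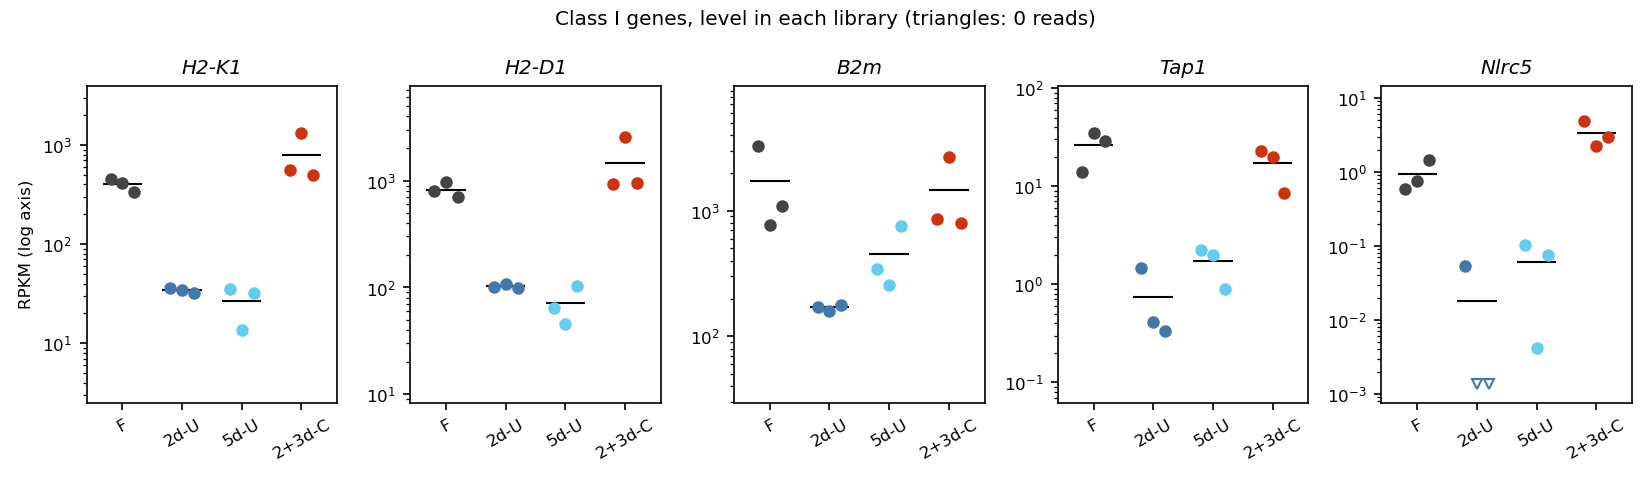
Level of each class I gene in RPKM (log axis) by group, with 1 point for each of the 12 libraries, a black line at the group mean and open triangles for libraries with 0 reads. The 3 F and the 3 2+3d-C libraries lie above all 6 uncompressed cultures for each of the 5 genes.

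H2-K1, H2-D1 and B2m together took 0.45% to 0.604% of all counted reads in F libraries, 0.0605% to 0.0645% in 2d-U cultures, 0.0369% to 0.0675% in 5d-U cultures and 0.406% to 0.844% in 2+3d-C. The light chain did not keep a fixed ratio to the heavy chains. H2-K1 over B2m, both in RPKM, was 0.138 to 0.541 in F libraries, 0.178 to 0.213 in 2d-U cultures, 0.0423 to 0.102 in 5d-U cultures and 0.488 to 0.649 in 2+3d-C. The ratio in 5d-U lay below that of every other library, and the ratio between the heavy chains, H2-D1 over H2-K1, ranged from 1.67 to 3.33 over the 12 libraries.

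H2-Aa, H2-Ab1, H2-Eb1 and Cd74 were higher in every F library than in every cultured library, and Ciita was not. H2-Aa was at 80.3, 28.1 and 22.4 RPKM in F libraries, 0 in all 3 2d-U libraries, 0.0573, 0 and 0.103 in 5d-U cultures, and 0.331, 0.0636 and 1.58 in 2+3d-C. H2-Ab1 was at 158, 99.1 and 58.4 RPKM in F libraries, 0.0883, 0.153 and 0.173 in 2d-U cultures, 0.305, 0.204 and 3.2 in 5d-U cultures, and 1.39, 8.04 and 7.53 in 2+3d-C. Cd74 was at 625, 314 and 190.4 RPKM in F libraries, 0 in all 3 2d-U libraries, 0.181, 0.0416 and 0.291 in 5d-U cultures, and 2.37, 13.7 and 18.8 in 2+3d-C. For these 3 genes no 2+3d-C library reached the lowest F library, and only for Cd74 did every 2+3d-C library exceed every 5d-U library. The 2+3d-C libraries differed widely, H2-Aa having 67, 2 and 131 reads and Cd74 212, 191 and 691. In 5d-U, H2-Aa had 5, 0 and 8 reads, where the density on silent genes predicts 14.6, 0.229 and 2.43. Cd74 had 7, 2 and 10 there against 6.45, 0.101 and 1.08 predicted, and H2-Ab1 18, 15 and 168 against 9.86, 0.155 and 1.65.

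For H2-Eb1 and Ciita the 5d-U and 2+3d-C libraries overlapped. H2-Eb1 was at 87.2, 35.6 and 38.8 RPKM in F libraries, 0.885, 1.23 and 0.296 in 2d-U cultures, 1.9, 1.45 and 9.11 in 5d-U cultures, and 2.67, 0.684 and 6.37 in 2+3d-C. Ciita was at 0.131, 0.495 and 0.504 RPKM in F libraries, 0 in all 3 2d-U libraries, 0.192, 0.00732 and 0.0718 in 5d-U cultures, and 0.21, 0.0127 and 0 in 2+3d-C. Its 30, 147 and 190 reads in F stood against 2.18, 48.9 and 69.1 predicted by the density on silent genes, and its 42, 2 and 14 reads in 5d-U against 36.6, 0.575 and 6.11. In 2+3d-C, Ciita had 107 reads in replicate 4, 1 in replicate 5 and 0 in replicate 10, with 3 reads corresponding to 0.128 CPM in the last. Cd74 was highest among the 2+3d-C libraries in replicate 10, where no Ciita read was counted.

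**Figure D2:**
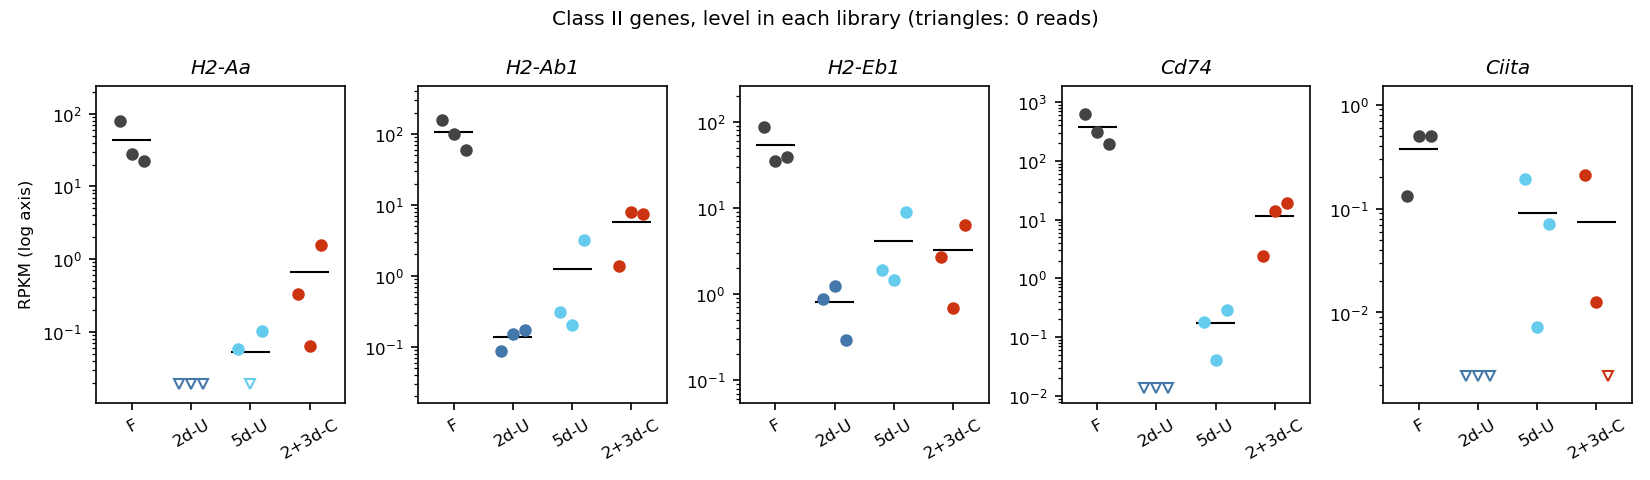
Level of each class II gene in RPKM (log axis) by group, with 1 point per library, a black line at the group mean and open triangles for libraries with 0 reads. The 3 F libraries are highest for H2-Aa, H2-Ab1, H2-Eb1 and Cd74, and the 2+3d-C libraries spread from 0.0636 to 1.58 RPKM for H2-Aa and from 2.37 to 18.8 RPKM for Cd74.

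**Figure D3:**
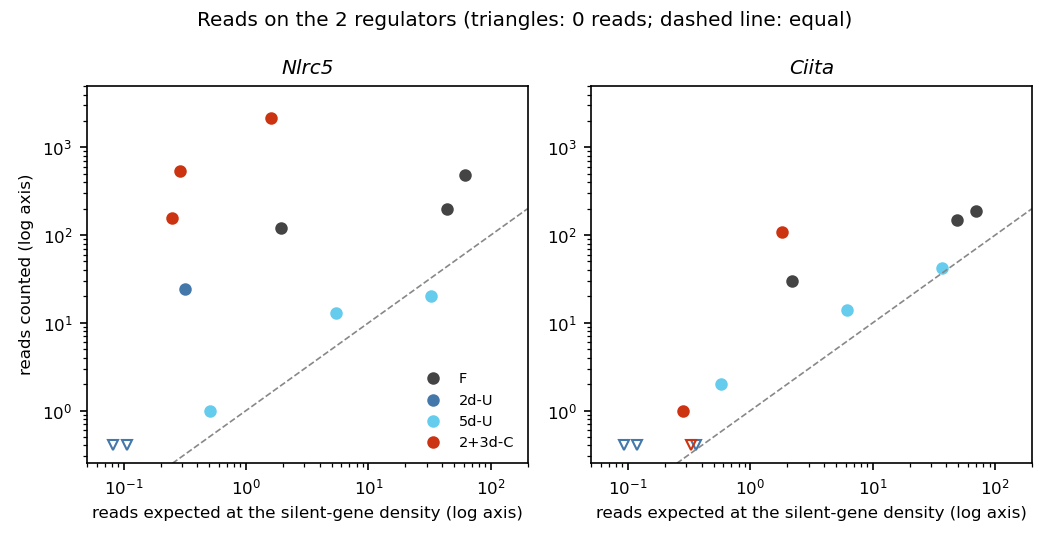
Reads counted on Nlrc5 and Ciita in each library against the reads that the density on silent gene families predicts for the gene's exons (log axes; dashed line, equal values; triangles, 0 reads at the bottom). The 3 2+3d-C libraries lie far above the line for Nlrc5, with 157 to 2184 reads, and the 5d-U libraries of both genes lie near it.

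Compression against culture of the same length is the comparison the study turns on, and 6 of the 10 members were higher in 2+3d-C cells than in 5d-U, with 0 lower. Over all tested genes, 9.14% were called higher and 13.4% lower, and the median difference was -1.05 on the log2 scale. H2-K1 was 29.3-fold higher (4.88 ± 0.53 SE, adjusted p = 3.49e-05) and H2-D1 20.8-fold (4.38 ± 0.52, adjusted p = 6.63e-05). Tap1 was 9.99-fold higher (3.32 ± 0.66, adjusted p = 0.00271), and Nlrc5 differed by 5.78 ± 1.43 (adjusted p = 0.0101). Called without exception in the 12 fits that each left out 1 library, these 4 genes ranged from 4.29 to 5.13, 3.71 to 4.75, 3.01 to 3.64 and 5.22 to 6.41. B2m missed the threshold at 1.68 ± 0.62 (adjusted p = 0.063), although each 2+3d-C library exceeded each 5d-U library. Without 2+3d-C replicate 5 its difference was 0.86 (adjusted p = 0.242), and without 5d-U replicate 6 it was 2.26 and was called (adjusted p = 0.0358), as it also was without F replicate 1 (0.0105) or 2+3d-C replicate 10 (0.0494).

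Among the class II genes, Cd74 rose the most, by 6.11 ± 0.92 (adjusted p = 0.000654), and stayed called when any 1 library was left out (5.55 to 6.72). The 5d-U side of that difference rests on 7, 2 and 10 reads of Cd74, and that of H2-Aa on 5, 0 and 8. H2-Aa was called as higher by 3.7 ± 1.14 (adjusted p = 0.035) although the groups overlapped, and the call was lost without 2+3d-C replicate 10 (2.11, adjusted p = 0.155) or 5d-U replicate 2 (3.05, adjusted p = 0.067). H2-Ab1 differed by 2.19 ± 0.89 (adjusted p = 0.0838), and without 5d-U replicate 6, the highest of its group, by 4.46 (adjusted p = 0.00152); it was also called without 2+3d-C replicate 4 (adjusted p = 0.0466). H2-Eb1 differed by -0.34 ± 0.82 (adjusted p = 0.761) and Ciita by -0.23 ± 1.62 (adjusted p = 0.924), SEs that leave room for changes in either direction. The 5 class I genes had a median difference of 4.38 and the 5 class II genes of 2.19.

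Against the cultures from which compression started, 9 of the 10 members were higher in 2+3d-C cells than in 2d-U cultures, where 16% of all tested genes were called higher and 8.63% lower. H2-K1 differed by 4.53 ± 0.52 (adjusted p = 4.54e-05), H2-D1 by 3.85 ± 0.51 (0.000119), B2m by 3.09 ± 0.65 (0.00369) and Tap1 by 4.52 ± 0.7 (0.000424). H2-Ab1 was 40.7-fold higher (5.35 ± 1.04, adjusted p = 0.00212). For genes with 0 reads in all 3 2d-U libraries a lower limit was set with 3 reads in each of those libraries, which put Cd74 at least 244-fold, H2-Aa at least 31.1-fold and Ciita at least 8.84-fold higher. These limits hold for the mean of 2+3d-C and not for each library, since H2-Aa had 67, 2 and 131 reads there and Ciita 107, 1 and 0. The call of Ciita rested on 2+3d-C replicate 4 and was lost without it (adjusted p = 0.316), and also without any single 2d-U library (0.0656 to 0.0778). H2-Eb1 missed the threshold (2.03 ± 0.86, adjusted p = 0.0965) and passed it without 2+3d-C replicate 5 (0.0361).

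Set against freshly isolated cells, 4 members in 2+3d-C were lower than in F, all of class II, and 0 were higher, a difference between the classes that was not itself tested, with 4.47% of all tested genes called lower and 1.94% higher and a median of -0.76 over all of them. Those counts over all genes, 438 higher and 1011 lower, became 1185 and 8878 without F replicate 1. H2-Aa was 64.8-fold lower (-6.02 ± 1.16, adjusted p = 0.0153), Cd74 32.4-fold (-5.02 ± 0.83, adjusted p = 0.00762), H2-Ab1 18.7-fold (-4.22 ± 0.96, adjusted p = 0.0247) and H2-Eb1 16.5-fold (-4.04 ± 0.92, adjusted p = 0.0249). The calls of H2-Ab1 and H2-Eb1 were lost without F replicate 4 (adjusted p = 0.0612 and 0.0556), and that of H2-Eb1 also without F replicate 5 (0.0555) or 2+3d-C replicate 5 (0.0526), while those of H2-Aa and Cd74 held in all 12 fits. None of the class I genes was called: H2-K1 differed by 0.98 ± 0.46 (adjusted p = 0.135), H2-D1 by 0.84 ± 0.45 (0.189), B2m by -0.24 ± 0.60 (0.816), Tap1 by -0.61 ± 0.61 (0.507) and Nlrc5 by 1.85 ± 1.19 (0.277). Those SEs do not show equality, and for H2-K1 and Nlrc5 every 2+3d-C library was above every F library. Ciita differed by -2.29 ± 1.68 (adjusted p = 0.353).

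**Figure D4:**
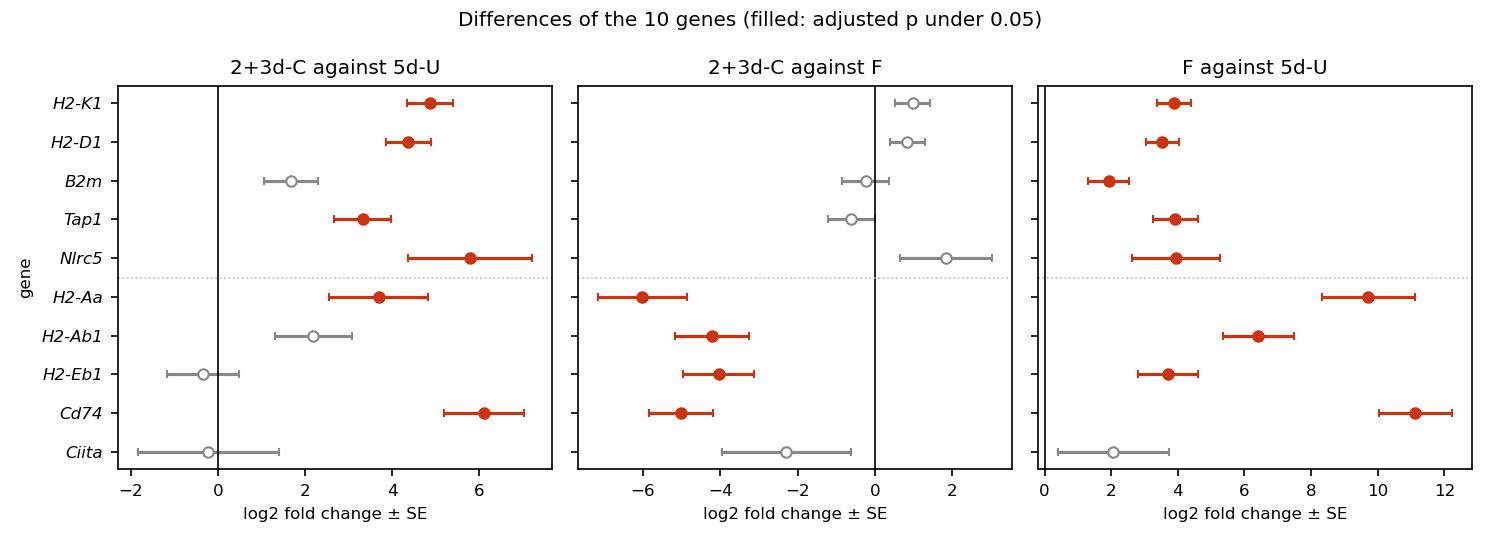
Log2 fold change ± SE of the 10 genes in 3 of the comparisons, with class I genes above the dotted line and class II genes below it, and filled points for an adjusted p under 0.05. Against 5d-U, 4 of 5 class I genes are filled on the right, and against F the filled points are H2-Aa, H2-Ab1, H2-Eb1 and Cd74, all on the left.

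Culture without compression was marked by lower levels of nearly all members. All 10 were higher in F than in 2d-U cultures, where 33.3% of all tested genes were called higher and 10.6% lower, and 9 were higher in F than in 5d-U, against 8.9% higher and 11.6% lower. Relative to 5d-U, F had 14.9-fold more H2-K1 (3.9 ± 0.51, adjusted p = 0.000198), 11.6-fold more H2-D1 (3.54 ± 0.50, 0.000331) and 15.2-fold more Tap1 (3.93 ± 0.68, 0.00108). B2m (1.92 ± 0.63, adjusted p = 0.0412) and Nlrc5 (3.94 ± 1.32, adjusted p = 0.047) were close to the threshold. The call of B2m was lost without F replicate 1 (adjusted p = 0.0648), 5d-U replicate 1 (0.0942) or 5d-U replicate 2 (0.15), and that of Nlrc5 without F replicate 4 (0.0732) or 5 (0.13), 5d-U replicate 2 (0.131) or 6 (0.117), or 2+3d-C replicate 4 (0.051). Among the class II genes the differences were 11.13 ± 1.1 for Cd74 (adjusted p = 7.19e-05), 9.71 ± 1.39 for H2-Aa (0.000527), 6.42 ± 1.07 for H2-Ab1 (0.000843) and 3.7 ± 0.91 for H2-Eb1 (0.00901), and Ciita was not called (2.06 ± 1.67, adjusted p = 0.494). In F against 2d-U, H2-K1 was 11.7-fold, H2-D1 8.04-fold, B2m 10.1-fold and H2-Ab1 760-fold higher, with lower limits of 7880-fold for Cd74, 2060-fold for H2-Aa and 44.8-fold for Ciita.

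Between day 2 and day 5 without compression, 0 of the 10 members were called by edgeR, where 1.87% of all tested genes were called higher and 0.243% lower in 5d-U. At an unadjusted p under 0.05, 6 members were higher in 5d-U, a count whose share over all genes was not computed. The median difference over all tested genes was 1.13 in the same direction, so the count is not read as a result about the members. DESeq2 called 4 members (H2-Aa, H2-Ab1, Cd74 and Ciita). Over all genes it called 3109 higher and 404 lower, against 424 and 55 with edgeR. H2-K1 differed by -0.34 ± 0.45 (adjusted p = 0.642) and H2-D1 by -0.53 ± 0.45 (0.446), whereas B2m was higher in each 5d-U library than in each 2d-U library (1.41 ± 0.62, adjusted p = 0.127). H2-Ab1 (3.15 ± 0.96, adjusted p = 0.0856), H2-Eb1 (2.37 ± 0.87, adjusted p = 0.109), Cd74 (adjusted p = 0.0593) and Ciita (adjusted p = 0.0856) also showed no overlap between the groups. In 5d-U, Cd74 had 7, 2 and 10 reads, where the density on silent genes predicts 6.45, 0.101 and 1.08. Ciita had 42, 2 and 14 reads there against 36.6, 0.575 and 6.11 predicted, and H2-Aa 5, 0 and 8 against 14.6, 0.229 and 2.43. Cd74 was called in 4 of the 12 fits with 1 library left out, without 5d-U replicate 1 (0.0464) or 2 (0.0244) or 2+3d-C replicate 4 (0.0206) or 10 (0.0255).

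Class II genes are known from immune cells, and the markers of such cells were measured beside them. All 22 immune markers had more than 3 reads in each F library, including replicate 1 with its low density on silent genes, whereas in 2+3d-C the number over 3 reads was 10, 7 and 5. Ptprc (CD45, on nearly all blood-derived cells), Adgre1 (F4/80, macrophages), Itgax (CD11c, dendritic cells), Mrc1, Ms4a1, Cd3e, Nkg7 and Xcr1 had 0 reads in every 2+3d-C library. Lyz2 (lysozyme of myeloid cells) was present there at 21.3, 53.4 and 3.96 RPKM, and S100a8 at 28.1, 54.5 and 0. Their highest counts there, 1491 and 1039 reads, were the largest of the list. Lyz2 and S100a8 also had the largest counts of the list in F (up to 20060 and 20302 reads) and in 5d-U (up to 2198 and 523). Sums of the immune markers can thus rest largely on these genes. Fcer1g (18 to 57 reads), Tyrobp (26 to 52) and Cd68 (6 to 286) were present in every 2+3d-C library. Over the replicates 4, 5 and 10 of 2+3d-C, the immune markers summed to 56.7, 129 and 9.69 CPM, while H2-Aa, H2-Ab1, H2-Eb1 and Cd74 took 0.00119%, 0.00299% and 0.00645% of the reads, so that the library with most class II reads had the lowest immune sum. In F, replicate 1 had both the highest immune sum (2102 CPM, against 670 and 620.8) and the highest class II share (0.189%, against 0.115% and 0.0759%). In 5d-U, replicates 1, 2 and 6 had 152.9, 3.32 and 11.9 CPM of immune markers and class II shares of 0.000549%, 0.000334% and 0.00179%, so that replicate 2 was lowest in both. The part of immune cells in the class II levels of F, 5d-U and 2+3d-C was not tested. Of the 22 markers, 0 were higher and 4 (Ptprc, Itgax, Mrc1 and Ms4a1) were lower in 2+3d-C cells than in 5d-U cultures, where 13.4% of all tested genes were lower. In 5d-U replicates 1, 2 and 6, Ptprc had 209, 1 and 23 reads against 70.3, 1.1 and 11.7 predicted from silent genes, and Itgax 9, 2 and 10 against 18.4, 0.289 and 3.08. Mrc1 had 39, 40 and 21 against 24.5, 0.384 and 4.08, and Ms4a1 77, 0 and 9 against 23.8, 0.373 and 3.97. Against 2d-U, 4 markers were higher in 2+3d-C (Lyz2, Tyrobp, C1qb and S100a8) and 1 was lower (Mrc1), where 16% of all tested genes were higher and 8.63% lower. Against F, 11 markers were lower in 2+3d-C, where 4.47% of all tested genes were called lower.

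Summed markers of other cells, like the class I genes, were higher in F and 2+3d-C than in uncompressed culture. The 10 endothelial markers summed to 1464 to 2300 CPM in F libraries, 13.2 to 14.9 in 2d-U cultures, 8.16 to 47.5 in 5d-U cultures and 330 to 372 in 2+3d-C. Of these, 8 of 10 were higher in 2+3d-C cells than in 5d-U, where 9.14% of all tested genes were called higher. The 8 fibroadipogenic markers summed to 4651 to 29840 CPM in F libraries, 120 to 223 in 2d-U cultures, 114 to 204 in 5d-U cultures and 2422 to 4287 in 2+3d-C, with 5 of 8 higher in 2+3d-C cells than in 5d-U. Pdgfra (adjusted p = 0.626), Pi16 (0.76) and Clec3b (0.0756) were not called in that comparison. Gsn had the largest count of that list, with up to 727441 reads in F. All 10 endothelial markers and all 8 fibroadipogenic markers had more than 3 reads in at least 1 library of 2+3d-C. Their sums in 2+3d-C were below those of F, but Dpt, an extracellular matrix gene of the fibroadipogenic list, was at 144, 218 and 120 RPKM in 2+3d-C against 66.5, 58.6 and 88.2 in F libraries, so that every 2+3d-C library was above every F library, as for H2-K1. The other genes of the fibroadipogenic list had lower means in 2+3d-C than in F. The part of endothelial and fibroadipogenic cells in the class I levels was not tested.

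**Figure D5:**
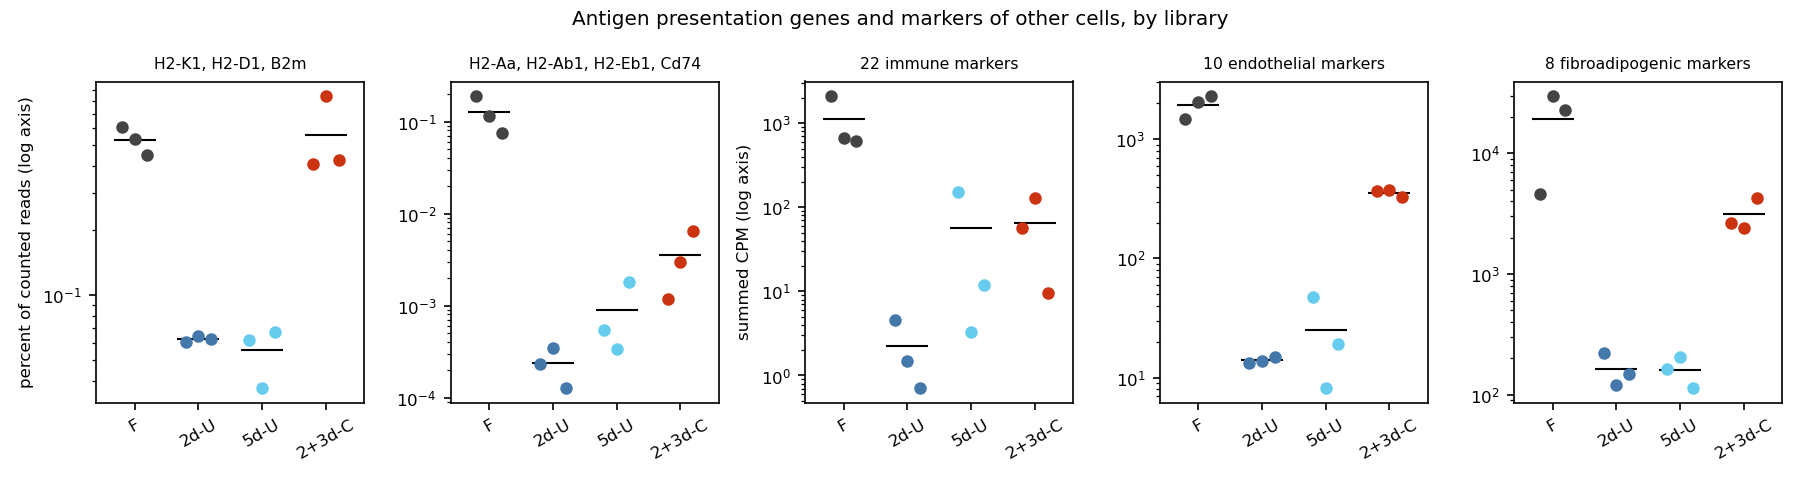
Share of counted reads on 3 class I genes and on 4 class II genes (percent, log axis) and summed CPM of immune, endothelial and fibroadipogenic markers (log axis) in each library, with a black line at the group mean. Class I shares of 2+3d-C (0.406% to 0.844%) overlap those of F (0.45% to 0.604%), while class II shares and the 3 marker sums of 2+3d-C lie below those of F.

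Other genes of the class I pathway were compared in 2+3d-C against 5d-U. Of 22 tested genes in a list of 23 (further class I heavy chains, peptide loading and immunoproteasome), 11 were higher and 1 was lower, with a median of 1.64 against -1.05 over all tested genes. Among all tested genes, 9.14% were called higher and 13.4% lower. Tapbp, the tapasin that tethers the class I molecule to the transporter, was at 5.56, 2.79 and 3.59 RPKM in 5d-U cultures and 112, 89.4 and 77.7 in 2+3d-C (4.54 ± 0.44, adjusted p = 1.52e-05). Tapbpl, a related peptide editor, was at 1.09, 1.74 and 1.21 RPKM in 5d-U cultures and 18.9, 22.9 and 16.2 in 2+3d-C (adjusted p = 0.000162). The non-classical class I gene H2-T23 rose from 0.617, 0.423 and 0.796 RPKM in 5d-U cultures to 20.2, 30.1 and 14.9 in 2+3d-C (5.15 ± 0.58, adjusted p = 4.38e-05). H2-Q6 was at 63.6, 47.5 and 49.5 RPKM in F libraries, 0 in 2d-U cultures, 0.0417, 0.0167 and 0.0235 in 5d-U cultures, and 56.2, 117.5 and 32.8 in 2+3d-C (adjusted p = 4.9e-06 against 5d-U), a gene with near-identical neighbours whose split of reads is uncertain. The gene that fell was Psmb10, an immunoproteasome subunit (-1.76, adjusted p = 0.0191), named after its value was seen. Of the general chaperones on the list, Calr was higher by 1.54 ± 0.37 (adjusted p = 0.00861), while Pdia3 (-0.09 ± 0.39, adjusted p = 0.867) and Canx (0.09 ± 0.46, adjusted p = 0.897) were not called. In 2+3d-C against F, 0 of the 22 were called in either direction, where 1.94% of all tested genes were called higher and 4.47% lower.

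Few genes of the class II pathway list were called. Of 20 tested genes (peptide exchange factors, endosomal proteases, co-stimulators and promoter-binding factors), 1 was higher and 2 were lower in 2+3d-C cells than in 5d-U, shares below the 9.14% and 13.4% of all tested genes, with a median of -0.24, or -0.0081 when 4 genes with 0 reads in 2+3d-C were set at 3 reads. Rfx5, a subunit of the factor that binds class II and class I promoters, was the gene that rose (0.411, 0.711 and 0.445 RPKM in 5d-U cultures and 8.32, 1.03 and 2.89 in 2+3d-C, adjusted p = 0.0305). Ifi30, an endosomal thiol reductase, fell by 3.82 ± 0.89 (adjusted p = 0.00706), from 17.5, 11.7 and 23.2 RPKM to 0.707, 0.123 and 2.8. H2-DMb1, a chain of the peptide exchanger H2-DM, had 0 reads in all 3 2+3d-C libraries and was at 0.388, 0.145 and 0.495 RPKM in 5d-U (adjusted p = 0.0273). Ctss, the protease that trims the invariant chain, was at 15.2, 0.0257 and 0.18 RPKM in 5d-U cultures and 0, 0 and 0.269 in 2+3d-C (adjusted p = 0.0566), and Ctsl (-0.05 ± 0.44), Nfyb (0.39 ± 0.48) and Nfyc (-0.18 ± 0.40) were not called. Against F, 0 of the 20 were higher in 2+3d-C and 6 were lower, among them Ifi30 (adjusted p = 0.041), H2-DMb1 (0.0185) and Ctss (0.0471). Over all tested genes, 1.94% were called higher in that comparison and 4.47% lower.

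Genes that respond to interferon were higher in 2+3d-C cells than in 5d-U. Of 19 tested interferon-induced genes, 15 were higher and 0 lower, with a median of 5.46 against -1.05 over all tested genes. Of 15 tested genes of interferon signalling, 12 were higher and 0 lower, with a median of 2.79. The shares over all tested genes in this comparison were 9.14% higher and 13.4% lower. Gbp2, a guanylate-binding protein, was at 200, 165 and 162 RPKM in F libraries, 0 in all 3 2d-U libraries, 0.709, 0.111 and 0.0778 in 5d-U cultures, and 273, 292 and 85.6 in 2+3d-C (9.5 ± 0.97 against 5d-U, adjusted p = 4.57e-05). Its relative Gbp3 rose by 7.18 ± 0.85 (adjusted p = 6.75e-05), the antiviral gene Ifit1 by 5.88 ± 0.80 (0.000338), and the immunity-related GTPases Irgm1 by 4.74 ± 0.70 (0.000365) and Iigp1 by 7.18 ± 1.2 (0.00129). Among the regulators, Irf1, a transcription factor of interferon responses, was at 3.82, 3.18 and 1.83 RPKM in 5d-U cultures and 23.4, 32.7 and 7.07 in 2+3d-C (2.84 ± 0.54, adjusted p = 0.00194). Irf8 was higher by 6.87 ± 0.83 (adjusted p = 7.84e-05), the kinase Jak1 by 3.07 ± 0.49 (0.000582), the receptor chain Ifngr1 by 1.89 ± 0.36 (0.00208) and the feedback inhibitor Socs3 by 5.77 ± 0.69 (7.37e-05). Ifng, which encodes interferon gamma and was named after its values were seen, had 0 reads in all 2d-U and 2+3d-C libraries, 54, 13 and 4 in F, and 1, 0 and 3 in 5d-U. Against F, 0 of the 19 interferon-induced genes were higher and 1 was lower in 2+3d-C (Ifit2, by -3.65, named after its value was seen), and 0 of the 15 signalling genes were called. The shares over all tested genes there were 1.94% higher and 4.47% lower.

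The genes whose log2 CPM over the 12 libraries most resembled that of B2m and of Cd74 were sought among 10765 tested genes averaging 5 CPM or more. For B2m these were Crem (Pearson r = 0.98), Ifitm3 (0.954), Mt1 (0.953), Snap23 (0.952) and Rgs2 (0.95). Ifitm3, an interferon-induced membrane protein, was at a mean of 819 CPM in F libraries, 146 in 2d-U cultures, 367 in 5d-U cultures and 1360 in 2+3d-C. For Cd74 they were Chp2 (0.983), Tnmd (0.981), Aspn (0.979), the member H2-Ab1 (0.977) and Cd300lg (0.976). Tnmd, known from tendon, and Aspn, known from connective tissue, were at means of 182 and 158 CPM in F libraries, 7.3 and 7.67 in 2+3d-C and under 1 CPM in both uncompressed cultures. The 12 libraries fall into 4 groups and share the depth and silent-gene differences given above, and the coefficients are descriptions only.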

How the data were processed

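RNA of mouse MuSCs was reverse-transcribed and amplified with the SMART-seq v4 kit and sequenced in 12 libraries, with 3 from each of 4 groups. Single-end reads were aligned to mm10 by the authors, who deposited raw counts per gene from featureCounts 1.6.4, without normalization and without regard to strand. Amplified reads are not independent molecules, so that counts and limits from 3 reads cover counting error only. Groups and replicate numbers were taken from the labels, and the merged table was checked to equal the single files in 12 of 12 columns.

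The deposited counts were fitted with edgeR 4.0.16 in R 4.3.3 (filterByExpr, TMM, 1 quasi-likelihood fit over 12 libraries, 1 coefficient per group, two-sided, Benjamini-Hochberg over 22635 tested genes). The SE is the absolute log2 fold change over the root of F. RPKM used the exon length of the files, and log2 CPM for similarity a prior count of 2. Exon overlap used GenomicRanges 1.54.1, and figures matplotlib 3.10.9. Totals ran from 12540745 to 62424851 reads, where 3 reads are 0.239 to 0.0481 CPM. Silent families held 1863 genes, 1853 of them autosomal.

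The 10 members, the lists and the motifs were chosen with earlier results of these data known. All members were named, and of each pathway list up to 4 genes with the smallest p in 2+3d-C against 5d-U and up to 3 with the highest mean CPM, together with the 5 genes closest to B2m and to Cd74 among tested genes averaging 5 CPM or more. Others are marked as named after their values were seen. The lists were class I and class II pathway, interferon signalling, interferon-induced genes, and immune, endothelial, fibroadipogenic and muscle stem cell markers. Marker genes were named from their lists.

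Alternatives were DESeq2 1.42.0, library size without TMM, no filter, only genes averaging 5 CPM or more, a replicate block, the libraries of the 2 compared groups alone, subtraction of the reads expected from silent families, a term in the model for those 4 libraries where silent families exceeded 0.5 reads per kb, and each library left out in turn. The alternative with 5 CPM or more took CPM from library totals without TMM.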

Additional observations from a re-analysis of the deposited data

How the results depend on the processing

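Members called in 2+3d-C against 5d-U, 2+3d-C against 2d-U, F against 2d-U and F against 5d-U stayed within 1.5 times of 6, 9, 10 and 9 under every alternative run, although the genes called differed between settings, and leaving out 1 library gave 5 to 8, 8 to 10, 10 and 7 to 9. In 2+3d-C against F, 4 became 2 with a model term for the libraries with silent-family reads (H2-Ab1 and H2-Eb1 lost, adjusted p = 0.0782 and 0.0736) and 2 to 4 with 1 library left out. In 5d-U against 2d-U, 0 became 4 with DESeq2, 5 without a filter, 1 with the replicate block and 0 to 2 with 1 library left out. The cause was not tested. DESeq2 and the unfiltered fit also called B2m (adjusted p = 0.0235 and 0.000764) and H2-Ab1 (0.0402 and 0.000581) as higher in 2+3d-C cells than in 5d-U. B2m was called there with library size alone (0.0397), at a mean of at least 5 CPM (0.0447) and after subtraction of silent-family reads (0.0393), and H2-Aa was lost with the model term (0.185). B2m in F against 5d-U was lost in the fit of the 2 groups alone (0.118) and with the model term (0.104).

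Signs turned for genes that were not called. Ciita in 2+3d-C against 5d-U was 0.092 without a filter, 1.88 after subtraction, 2.32 with the model term and -4.13 to 0.96 with 1 library left out. H2-Eb1 in that comparison was 1.01 with the replicate block and -1.27 to 0.96 with 1 library left out, and B2m in 2+3d-C against F was 0.73 with the block and -1.04 to 0.47 with 1 library left out. Ciita in F against 5d-U was -0.45 with the block, and Nlrc5 in 5d-U against 2d-U was -0.56 after subtraction and -0.14 with the model term. Of 720 single-gene results with 1 library left out, 679 kept direction and side of the threshold.

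Replicate numbers pair no libraries by the labels. Of 6 pairs of libraries from different groups with a shared number, 0 had a correlation of deviations over 0.1 (-0.424 to 0.0322). The block left 2 residual degrees of freedom and gave 5, 6, 4, 8, 7 and 1 calls in the order of 2+3d-C against 5d-U, 2d-U and F, F against 2d-U and 5d-U, and 5d-U against 2d-U. In 2+3d-C against 5d-U the block lost Tap1 (1.6, adjusted p = 0.377), Nlrc5 (4.06, 0.129) and H2-Aa (3.35, 0.111) and gained B2m (0.0094) and H2-Ab1 (0.00547). It also lost Tap1 (0.0914), Nlrc5 (0.0703) and Ciita (0.492) in 2+3d-C against 2d-U, Nlrc5 (0.122) and Ciita (0.107) in F against 2d-U, and Tap1 (0.234) and Nlrc5 (0.359) in F against 5d-U, and gained Cd74 (0.0277) in 5d-U against 2d-U.

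Counts over all genes depended on the setting. In 2+3d-C against 5d-U, 2068 higher and 3042 lower became 3230 and 4521 with DESeq2, and 728 and 3098 with the block. In 2+3d-C against F, 438 and 1011 became 142 and 1217 with library size alone and 23 and 182 with the model term, and without F replicate 1 1185 and 8878. In 5d-U against 2d-U, 424 higher became 3109 with DESeq2, 126 with library size alone and 89 after subtraction. In 2+3d-C against 2d-U, the split of 3619 higher and 1954 lower turned to 2537 and 3139 with library size alone. Scaling by library size alone moved the median of all genes from -0.76 to -1.24 in 2+3d-C against F and from 1.13 to 0.65 in 5d-U against 2d-U, and turned the sign of no member. At a mean of at least 5 CPM, Ciita was not tested. With 3 libraries per group, differences of the size of the SEs given were not detectable, and in 5d-U the reads of Nlrc5 and Ciita were 0.613 to 2.39 and 1.15 to 3.48 times those predicted from silent genes. Those of H2-Aa and Cd74 in 5d-U were 0 to 3.29 and 1.09 to 19.8 times the prediction.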
